A study of Secale cereale x Triticum turgidum subsp. durum with 39 samples.

Results

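The stigma was compared with the ovary of triticale at the bicellular pollen stage (BCP), using 3 stigma and 3 ovary arrays out of 39 in the series. The arrays were chosen by the organ and stage in their titles. Triticale is the hybrid cereal of wheat and rye; plants of cultivar Alta were grown untreated in a growth chamber, and RNA abundance was measured on the Affymetrix Wheat Genome Array. The tested group was stigmas dissected when the anthers of the same flowers hold bicellular pollen, and it was set against ovaries of the same stage, both with 3 replicates that the labels call biological. Stigmas and ovaries at the tetrad (TET), uninucleate microspore (UNM) and tricellular pollen (TCP) stages, anthers and mature pollen (MPG) are used to place the BCP values. All 39 arrays also entered the fit behind the tests, where they share in the estimate of the spread. BCP and UNM samples of all organs shared one set of extraction and labelling kits, while TET samples, and TCP samples with MPG, had other kits. How many plants went into a replicate is not given in the sources used here.

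The stigma of grasses is a feathery organ whose receptive cells catch and hydrate pollen and let the pollen tube enter, and it completes its differentiation while the pollen ripens. The ovary encloses the ovule and becomes the grain after fertilisation. Both belong to one pistil, so the comparison sets 2 neighbouring organs of the same flower side by side at 1 stage, before pollination.

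Each probe set is a group of short probes that reports 1 transcript, or a few similar ones, as a signal on the log2 scale. Of 61290 probe sets, the 111 with control names were dropped, which left 61179. Signals ran from 1.95 to 15.02, and a mean under 6 is called dim here: 65.9% of probe sets were dim in stigmas at BCP and 65.7% in ovaries at BCP. Where one organ is dim, a fold compares signals and gives no measured ratio of transcripts. In bulk organs, fewer cells of a type and less RNA per cell cannot be told apart. Only 13 genes could be named from the annotation, so no organ could be checked against defining markers, which include no named anther or pollen gene and only petC among green-tissue genes.

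The 6 arrays fell into their labelled groups, each being closest to an array of its own group. The correlation between replicates was 0.987 to 0.992 among stigmas and 0.994 to 0.995 among ovaries, and the median SD of a probe set was 0.153 in stigmas and 0.123 in ovaries. Stigma and ovary arrays correlated with each other at r of 0.955 to 0.966. Signals of 8 or more made up 16.06% to 16.77% of probe sets in stigma arrays and 16.61% to 16.84% in ovary arrays. Poly-A control transcripts, which are added to the RNA, averaged 6.15 to 6.89 in stigma arrays and 6.52 to 6.77 in ovary arrays.

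At BCP, 1862 probe sets were higher and 2354 were lower in stigmas than in ovaries, or 3.04% and 3.85% of those tested. Calls needed 2 things in a limma fit over all arrays: a 2-fold difference (1 on the log2 scale) and an adjusted p below 0.05, by the Benjamini-Hochberg method. Without the fold and the adjustment, 27.8% of probe sets had a p below 0.05. The median called difference was 2.65-fold on the higher side and 2.67-fold on the lower side. The upper tail was longer in stigmas: 40 probe sets were at least 32-fold higher and 18 at least 32-fold lower, and 22 were at least 64-fold higher and 4 at least 64-fold lower. The largest differences were 389-fold higher and 117-fold lower. Scaling arrays to their hybridisation controls moved the median difference of all probe sets to 0.146 from 0.0215 and turned the split to 2363 higher and 1919 lower, so neither direction can be called the more frequent.

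**Figure D1:**
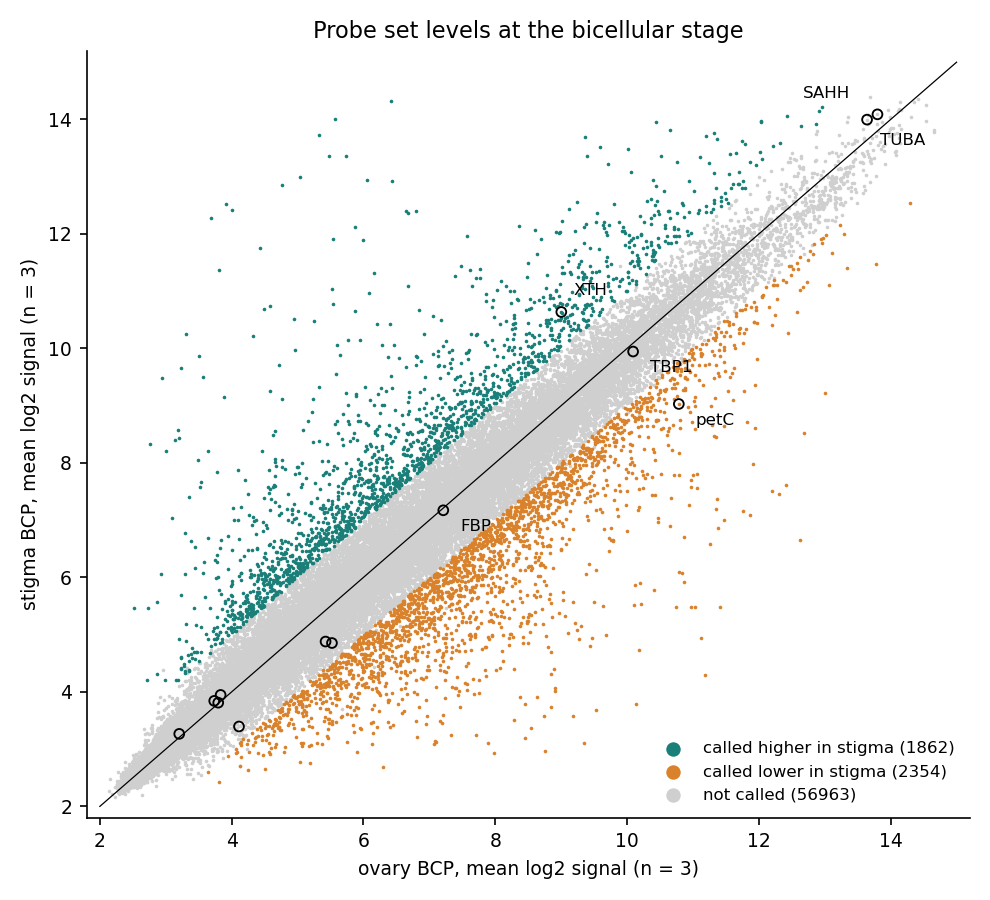
Mean log2 signal of every probe set in stigma BCP arrays (vertical axis) against ovary BCP arrays (horizontal axis), 3 arrays each. Teal points are the 1862 called higher and orange points the 2354 called lower in stigmas; black rings are the 13 named genes, of which XTH lies above and petC below the line of equal level.

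Of the higher probe sets, 82 were bright (a mean of at least 8) in stigmas and dim in ovaries, and 116 of the lower ones were bright in ovaries and dim in stigmas. Another 247 of the higher ones were dim even in stigmas, and 378 of the lower ones dim even in ovaries. Across all higher calls the median level was 8.05 in stigmas and 6.31 in ovaries. Across all lower calls it was 5.94 in stigmas and 7.74 in ovaries. These levels describe the probe sets that the test selected.

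Among the named genes, XTH was higher and petC lower in stigmas, and the other 11 were not called. That is 2 of 13, beside 6.89% of all probe sets called in either direction, and the median difference of the 13 genes was 0.015, beside 0.021 for all probe sets. The arrays of the 2 organs did not overlap for 7 of the 13 genes, beside 34.2% of all probe sets (17.1% with stigmas higher and 17% with stigmas lower).

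XTH encodes a xyloglucan endotransglucosylase/hydrolase, an enzyme that cuts and rejoins the xyloglucan chains of the cell wall and is the only named cell wall gene. Its log2 signals were 10.17, 11.13 and 10.61 in stigmas, against 8.89, 9.18 and 8.94 in ovaries. Every stigma array lay above every ovary array. The means were 10.64 ± 0.48 in stigmas and 9.0 ± 0.15 in ovaries (SD, n = 3 each), a 3.10-fold difference (log2 difference 1.63, SE 0.21, adjusted p = 1.9e-07). At UNM the same gene had 9.01 ± 0.26 in stigmas and 9.17 ± 0.16 in ovaries (SD, n = 3 each), and the difference at BCP exceeded that at UNM by 1.79 (SE 0.29, adjusted p = 0.00018). Anthers at BCP were dim for XTH, with a mean of 5.65 ± 0.31 (SD, n = 3).

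petC encodes the Rieske subunit of cytochrome b6f, the chloroplast complex that passes electrons between the photosystems. Its log2 signals were 8.93, 8.88 and 9.29 in stigmas, against 10.88, 10.85 and 10.63 in ovaries. No stigma array reached the lowest ovary array. The means were 9.03 ± 0.22 in stigmas and 10.79 ± 0.13 in ovaries (SD, n = 3 each), a 3.38-fold difference in the other direction (log2 difference -1.76, SE 0.21, adjusted p = 6.4e-08). The difference was already -1.82 at UNM, and its change between UNM and BCP was 0.06 (95% interval -0.55 to 0.67, adjusted p = 0.96). Anthers at BCP had 11.17 ± 0.42 (SD, n = 3), beside the ovary mean of 10.79. The additional petC probe set was dim in both organs, at 3.68 in stigmas and 3.42 in ovaries, and was not called.

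**Figure D2:**
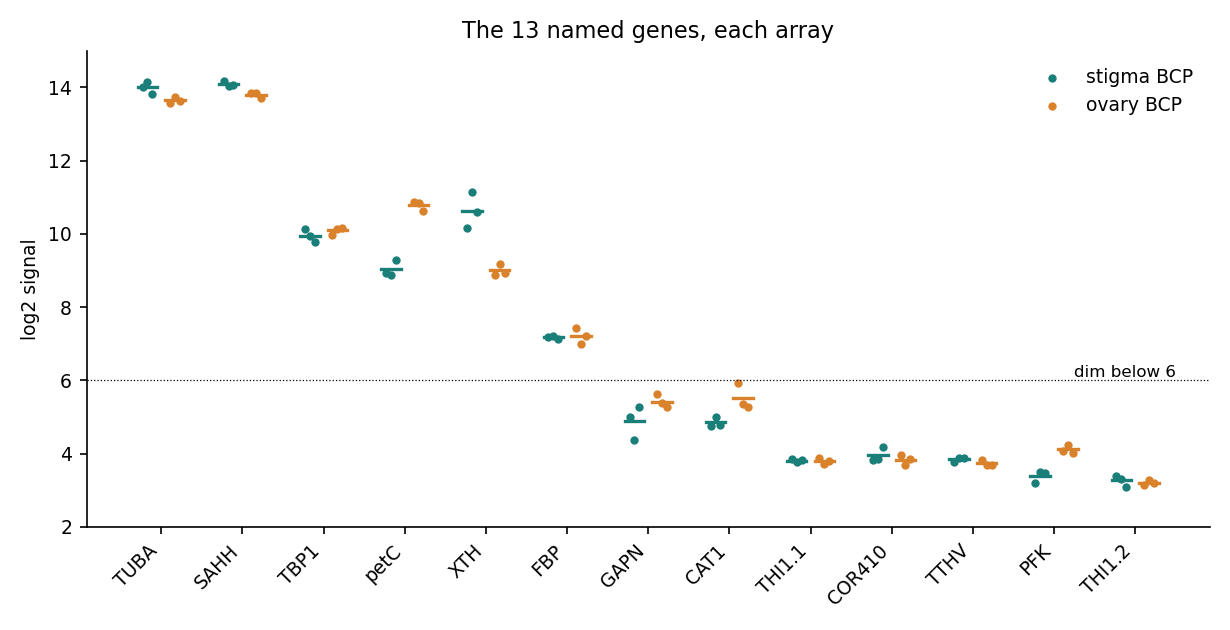
Log2 signal of the 13 named genes in each stigma BCP array (teal, left of each pair) and ovary BCP array (orange), ordered by their mean over all 39 arrays; bars are means of 3. XTH and petC are the genes whose organs are far apart, and 7 genes lie under the dotted line in both organs.

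The named sugar genes FBP, GAPN and PFK were not called. FBP, a fructose bisphosphatase of carbon metabolism, had 7.18, 7.21 and 7.13 in stigmas and 7.42, 7.0 and 7.21 in ovaries, so that the stigma values lay within the ovary range. Its difference was -0.04 with a 95% interval of -0.46 to 0.38. GAPN, a glycolytic dehydrogenase that makes NADPH, was dim in both organs, with means of 4.88 ± 0.46 in stigmas and 5.43 ± 0.18 in ovaries (SD, n = 3 each; difference -0.55, adjusted p = 0.13). PFK, a phosphofructokinase, had a mean of 3.40 ± 0.16 in stigmas and 4.11 ± 0.10 in ovaries (SD, n = 3 each), and its difference of -0.72 had an adjusted p of 0.00083 but was short of the 2-fold minimum, at levels where both organs are dim.

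TUBA, SAHH and TBP1 were not called either. TUBA, an alpha-tubulin of the microtubules, had 14.02, 14.14 and 13.83 in stigmas, against 13.57, 13.73 and 13.63 in ovaries. The stigma arrays lay above the ovary arrays by a mean of 0.35 (95% interval 0.13 to 0.58, adjusted p = 0.021), a 1.28-fold difference under the 2-fold minimum. SAHH, the adenosylhomocysteinase of the methylation cycle, had means of 14.09 ± 0.08 in stigmas and 13.80 ± 0.08 in ovaries (SD, n = 3 each; difference 0.29, adjusted p = 0.23). Its additional probe set differed by 0.62 (adjusted p = 0.0065), again under the minimum. TBP1, the TATA-binding protein that general transcription needs, had 9.95 ± 0.16 in stigmas and 10.09 ± 0.11 in ovaries (SD, n = 3 each), and the 95% interval of its difference was -0.41 to 0.11.

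The defence and stress genes were near the bottom of the scale. The thionin genes THI1.1, THI1.2 and TTHV, which encode small antimicrobial peptides, and COR410, a cold-regulated dehydrin, had means of 3.27 to 3.95 in stigmas and 3.20 to 3.83 in ovaries. Their differences lay between 0.02 and 0.11 and none was called. CAT1, a catalase that breaks down hydrogen peroxide, had 4.76, 5.01 and 4.79 in stigmas and 5.94, 5.36 and 5.27 in ovaries. Its organs did not overlap, but both means were dim and the difference of -0.67 had an adjusted p of 0.15. The additional CAT1 probe set, dim as well, pointed the other way, with overlapping organs and a difference of 0.24 (adjusted p = 0.42).

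The array also carries 25 probe sets for wheat maintenance control transcripts, several of which are probed at their 5′ part, middle and 3′ part. They were outside the main fit, and their tests come from a fit that kept them. In it 3 of the 25 were called, beside 6.89% of all probe sets in the main fit. Several of the 25 are parts of the same transcript, so they are not independent. The 3′ probe set of CYP86-TA had 10.33, 10.16 and 9.89 in stigmas, against 8.26, 8.39 and 8.19 in ovaries. All stigma arrays were above all ovary arrays, with a difference of 1.85 (SE 0.32, adjusted p = 4.1e-05), while the middle and 5′ probe sets differed by 0.82 and 0.72, under the 2-fold minimum.

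G-6-PDH, glucose-6-phosphate dehydrogenase, which starts the pentose phosphate pathway, was called higher in stigmas at its 5′ and middle probe sets and not at its 3′ probe set. The 5′ values were 5.38, 6.73 and 4.99 in stigmas and 3.82, 4.45 and 4.25 in ovaries, a difference of 1.53 (SE 0.28, adjusted p = 7.2e-05). Both 5′ means were dim, at 5.70 in stigmas and 4.17 in ovaries. The middle values were 7.47, 8.42 and 7.67 in stigmas and 6.24, 6.88 and 6.28 in ovaries, a difference of 1.39 (SE 0.24, adjusted p = 3.3e-05). The 3′ values of 9.43, 9.50 and 9.47 in stigmas and 8.52, 8.76 and 8.70 in ovaries also did not overlap, but their difference of 0.81 (adjusted p = 0.0048) was under the minimum. Replicate 2 was the highest array of each organ at all 3 parts, and without stigma replicate 2 the 5′ difference was 1.01. The excess of 3′ over 5′ signal, which depends on RNA integrity and labelling, was 3.76 ± 0.90 in stigmas and 4.48 ± 0.20 in ovaries for G-6-PDH, and 7.72 ± 0.21 in stigmas and 8.50 ± 0.11 in ovaries for Sucsyn, but 2.95 ± 0.28 in stigmas and 1.82 ± 0.04 in ovaries for CYP86-TA (SD, n = 3 each). Ubiquitin was bright at every part in both organs, and its excess was -1.57 ± 0.25 in stigmas and -1.04 ± 0.19 in ovaries (SD, n = 3 each). For Sucsyn, the excess of 3′ over middle signal was also smaller in stigmas. Among G-6-PDH, Sucsyn, CYP86-TA and Ubiquitin, only CYP86-TA had a larger excess in stigmas. The excess was not computed for actin or the other control transcripts. The 5′ probe set of Sucsyn was dim, at 4.28 in stigmas and 3.98 in ovaries, as was that of G-6-PDH. The part of the balance between 3′ and 5′ signal in the results was not tested.

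Sucsyn, the sucrose synthase control that splits sucrose for sink tissues, was not called at any part. Its bright 3′ probe set had 11.86, 12.04 and 12.10 in stigmas and 12.43, 12.67 and 12.34 in ovaries, a difference of -0.48 (adjusted p = 0.14). Its middle probe set pointed the other way, with 7.89, 9.51 and 7.78 in stigmas and 7.53, 8.49 and 7.74 in ovaries; replicate 2 was again the highest in each organ. Ubiquitin, the small protein that tags others for breakdown, was within 0.11 of equal at its middle and 3′ probe sets, and differed by 0.48 at its 5′ probe set. The 3′ actin probe set was at 4.99 in stigmas and 4.57 in ovaries, both dim, where anthers at BCP had 12.52. The brighter middle actin probe set had 6.82 in stigmas and 6.05 in ovaries, a difference of 0.77 (adjusted p = 0.0024). The dimmer middle probe set differed by 0.53 (adjusted p = 0.044) and the 5′ probe set by 0.12 (adjusted p = 0.79). All were under the 2-fold minimum.

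**Figure D3:**
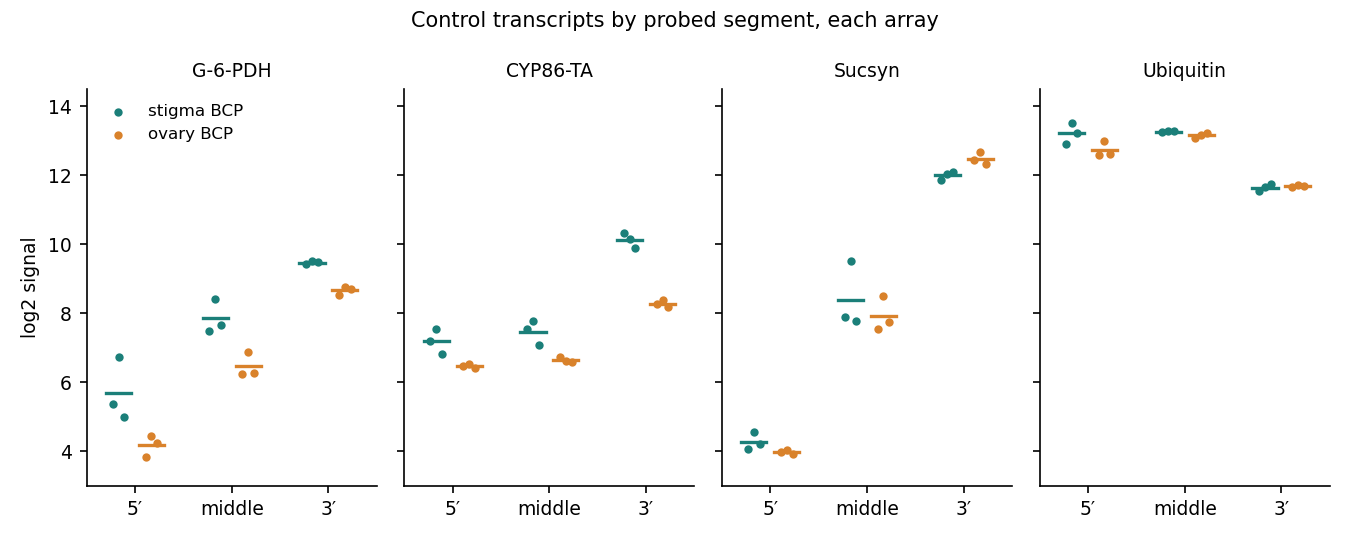
Log2 signal of 4 maintenance control transcripts at their 5′, middle and 3′ probe sets in each stigma BCP array (teal) and ovary BCP array (orange), with bars for means of 3. G-6-PDH is apart at all 3 parts and CYP86-TA most at the 3′ part, while Sucsyn turns from slightly lower at the 3′ part to slightly higher at the others.

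The largest differences of all belonged to probe sets without a gene name. On the higher side these were Ta.14426.1.S1_at and Ta.14426.1.S1_x_at, which share a cluster number and so are not independent. Ta.14426.1.S1_at had 12.24, 11.69 and 13.64 in stigmas, against 3.67, 2.86 and 5.23 in ovaries. All stigma arrays were bright and all ovary arrays were dim, and the difference was 8.60 (SE 0.55, adjusted p = 2.3e-14). Its SD was 1.00 in stigmas and 1.21 in ovaries, and under the alternatives run the limma adjusted p was at most 4.7e-05. Its partner differed by 8.59. At UNM Ta.14426.1.S1_at was still dim in both organs: stigma arrays gave 4.99, 2.60 and 3.21, and ovary arrays 2.52, 2.81 and 2.76. The difference at BCP exceeded that at UNM by 7.70 (SE 0.78), a description only, since the BCP arrays chose the probe set. At TCP the stigma values were 14.28, 14.36 and 14.36 and the ovary values 5.83, 5.76 and 2.87.

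On the lower side the largest were Ta.6504.1.S1_at and Ta.27776.1.S1_at. Ta.6504.1.S1_at had 4.39, 4.11 and 4.40 in stigmas and 11.32, 11.08 and 11.12 in ovaries, a difference of -6.88 (SE 0.30, adjusted p = 7.9e-19). Ta.27776.1.S1_at had 3.67, 3.81 and 3.87 in stigmas and 10.05, 10.21 and 10.15 in ovaries, a difference of -6.35 (SE 0.29, adjusted p = 4.9e-18). Both were dim in every stigma array and bright in every ovary array. Both were also called lower at TET. There Ta.6504.1.S1_at was dim in both organs, with means of 4.26 in stigmas and 5.27 in ovaries, and was called narrowly (adjusted p = 0.042). For Ta.27776.1.S1_at the difference was -4.65 at TET and -6.56 at UNM, and for Ta.6504.1.S1_at it was -1.01 at TET and -5.14 at UNM. From UNM to BCP the difference of Ta.6504.1.S1_at moved by a further -1.73 (SE 0.42) and that of Ta.27776.1.S1_at by 0.21 (SE 0.42). As these probe sets were chosen on the BCP arrays, the changes are given with no test.

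Levels over the stages were also taken for the 60 probe sets that were at least 16-fold higher and the 60 at least 16-fold lower in stigmas at BCP. The values at BCP chose these probe sets, and the other stages come from other arrays. Over TET, UNM, BCP and TCP, the 60 higher ones had median levels of 3.87, 6.19, 10.58 and 12.34 in stigmas and of 3.71, 4.19, 4.95 and 5.39 in ovaries. At TET 8 of the 60 were called higher in stigmas, beside 0.703% of all probe sets; at UNM 41 were, beside 1.1%, and at TCP 57, beside 5.69%. Per array, their median at UNM was 6.57, 5.21 and 6.85 in stigmas, against 4.17, 4.25 and 3.92 in ovaries.

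The 60 lower probe sets had lower medians in stigmas at every stage. Their median levels over TET, UNM, BCP and TCP were 5.86, 5.35, 5.01 and 4.97 in stigmas and 8.81, 9.59, 9.66 and 9.77 in ovaries. Of the 60, 41 were called lower in stigmas at TET, beside 1.12% of all probe sets; 57 were at UNM, beside 1.98%, and 59 at TCP, beside 6.99%. By the test of the change between stages, the difference was called higher at BCP than at UNM for 50 of the 60 higher probe sets, beside 1.93% of all, and lower at BCP for 14 of the 60 lower ones, beside 1.35%. That test used the BCP arrays that chose the probe sets, so these counts describe them and support nothing further.

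**Figure D4:**
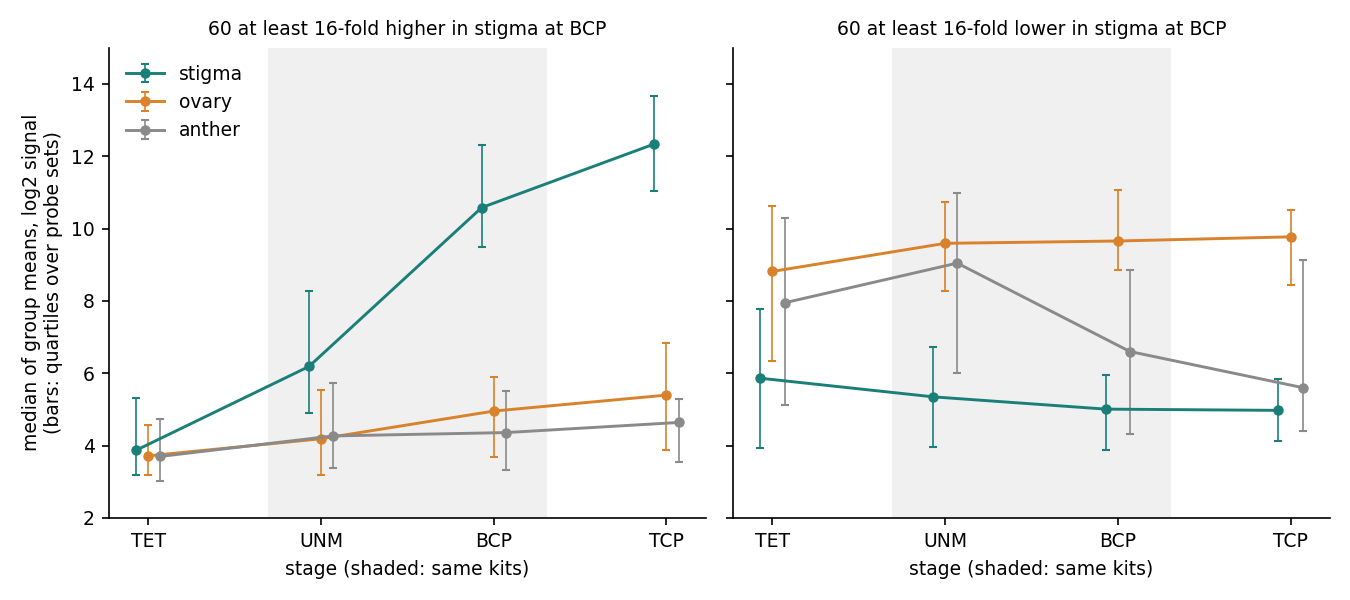
Median over 60 probe sets of the group mean log2 signal (bars: quartiles over probe sets) in stigma, ovary and anther at 4 stages, for the probe sets at least 16-fold higher (left) or lower (right) in stigmas at BCP. At the median, the higher ones climb in stigmas across the stages and are dim elsewhere. The lower ones have medians that are bright in ovaries at every stage. Shading marks the stages with the same kits.

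Anthers were the other organ sampled with the same kits at BCP. Their levels did not enter the choice of these probe sets, but their arrays shared in the spread that the calls used. Among the 82 that were bright in stigmas and dim in ovaries, 63 were dim in anthers at BCP and 11 were bright there, with a median of 4.55. Over all probe sets 65.9% were dim and 16.1% bright in anthers at BCP. In mature pollen 67 of the 82 were dim and 6 were bright, beside 68.2% and 9.38% of all probe sets. Among the 116 that were bright in ovaries and dim in stigmas, 53 were dim in anthers at BCP and 34 were bright, with a median of 6.11. Over all called probe sets, the median anther level was 6.19 for the higher ones and 6.85 for the lower ones. The corresponding medians were 8.05 in stigmas and 6.31 in ovaries for the higher ones, and 5.94 in stigmas and 7.74 in ovaries for the lower ones.

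Stigma and ovary were further apart at BCP than at UNM for part of the called probe sets. At UNM 676 probe sets were higher and 1214 lower in stigmas, or 1.1% and 1.98% of those tested and 3.09% together. Of the 1862 higher at BCP, 546 were also higher at UNM, which is 29.3% of the BCP list and 80.8% of the UNM list. Of the 2354 lower at BCP, 880 were also lower at UNM, which is 37.4% of the BCP list and 72.5% of the UNM list. Calls with opposite signs at the 2 stages numbered 7 and 1. Across all 61179 probe sets, the differences at BCP and UNM correlated with r of 0.65, a description over probe sets that share arrays and transcripts.

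The difference between stigmas and ovaries was itself higher at BCP than at UNM for 1182 probe sets and lower for 826, or 1.93% and 1.35% of those tested and 3.28% together; 16.9% had an unadjusted p below 0.05. The 1182 had median levels of 7.35 in stigmas at BCP and 6.03 in stigmas at UNM, and of 5.88 in ovaries at BCP and 6.22 in ovaries at UNM. The 826 had 6.55 in stigmas at BCP and 7.64 in stigmas at UNM, and 7.96 in ovaries at BCP and 7.61 in ovaries at UNM. The same arrays selected these probe sets, so the levels only describe what the test picked. Of the 13 named genes, XTH alone was called in this comparison. Of the maintenance controls, in the fit that kept them, the difference was higher at BCP for some parts of G-6-PDH and Sucsyn. For G-6-PDH it was higher at the 5′ probe set by 1.62 (adjusted p = 0.01) and the middle one by 1.16 (adjusted p = 0.035). For Sucsyn it was higher at the middle one by 1.89 (adjusted p = 0.0032). The 3′ probe sets were not called, with changes of 0.63 for G-6-PDH (adjusted p = 0.27) and 0.56 for Sucsyn (adjusted p = 0.40). Nor was the 5′ probe set of Sucsyn, at 0.45 (adjusted p = 0.29). At each called part, stigma BCP replicate 2 was the highest stigma array of that stage. The G-6-PDH 5′ probe set had dim means in both organs at both stages. The count of 1182 was 694 without stigma BCP replicate 2 and 1783 without stigma BCP replicate 3, so it rests on single arrays. It was 710, beside 891 lower, when only the 12 arrays of the compared groups were fitted, and 1443, beside 581 lower, when arrays were scaled to their hybridisation controls.

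**Figure D5:**
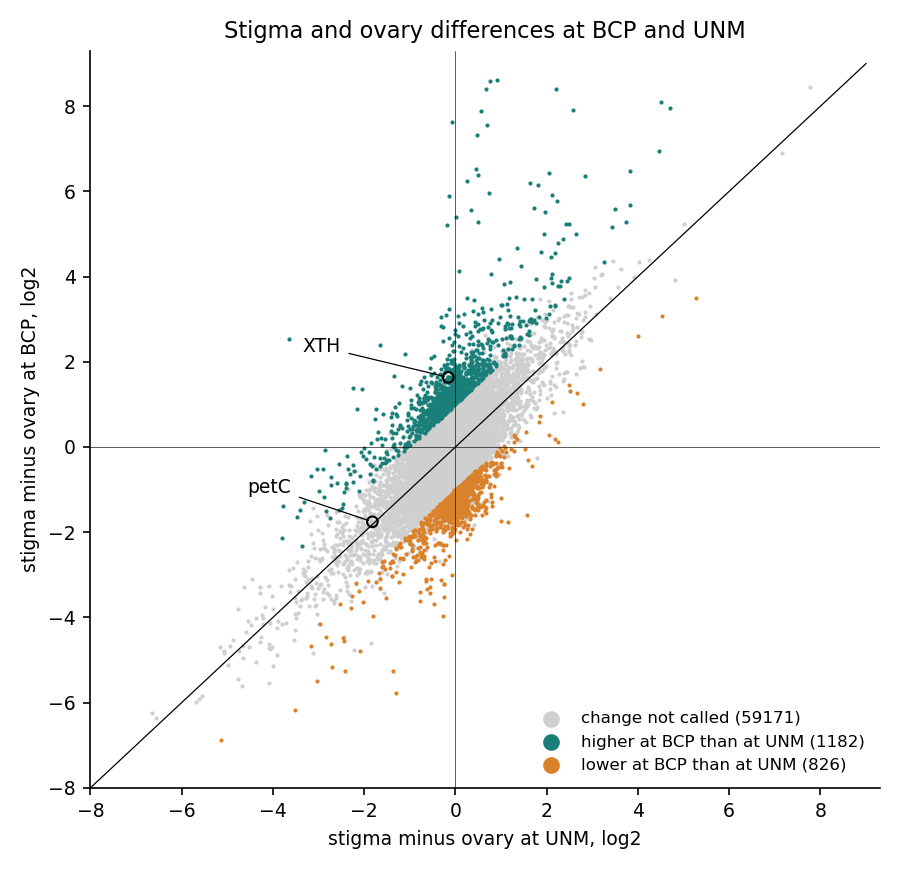
Stigma minus ovary log2 difference at BCP (vertical axis) against UNM (horizontal axis) for every probe set; the diagonal marks equal differences. Teal points are the 1182 whose difference was higher and orange points the 826 whose difference was lower at BCP; XTH lies near 0 at UNM and petC near the diagonal.

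At TCP, where both organs had other kits than at BCP, 3480 probe sets were higher and 4279 lower in stigmas, or 5.69% and 6.99%, together 12.7%. Of the BCP list, 1093 of the higher ones (58.7%) and 1643 of the lower ones (69.8%) were called the same way at TCP, where they made up 31.4% and 38.4% of the TCP lists. At TET 430 were higher and 685 lower, or 0.703% and 1.12%, together 1.82%, and after scaling to the hybridisation controls 1028 were higher and 398 lower. Taking the calls of all stages, 117 probe sets were higher and 257 lower in stigmas at each of the 4 stages. Another 705 higher and 1027 lower ones were called at BCP and TCP and not earlier. Called at BCP and at no other stage were 568 higher and 390 lower ones, which does not show that they differed between stages.

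Between BCP and TCP the difference changed for 2216 probe sets upward and 2678 downward, or 3.62% and 4.38%, together 8%; 22.7% had an unadjusted p below 0.05. After scaling to the hybridisation controls these counts were 1468 and 4088. The XTH difference grew by a further 1.55 (SE 0.29, adjusted p = 0.00021), to a difference of 3.18 at TCP, where stigmas had 12.86 to 13.13 and ovaries 9.58 to 9.99. The petC difference moved by -1.19 (adjusted p = 0.0047), to -2.95. FBP, with its organs overlapping at BCP, was higher in stigmas at TCP by 1.81, a change of 1.85 (adjusted p = 1.3e-05). The additional FBP probe set, dim in both organs at BCP, changed by 0.25 (adjusted p = 0.74) and was not called. TUBA and SAHH changed by -0.72 (adjusted p = 0.0013) and -0.75 (adjusted p = 0.015), under the minimum. The additional TUBA probe set, dim in both organs at BCP, did not share that fall, with a change of 0.06 (adjusted p = 0.95). The additional SAHH probe set changed by -1.04 (adjusted p = 0.0018), which was called.

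The called probe sets were not spread evenly over the kinds of probe sets on the array. Those with the suffix _a_at, which read several transcripts of one gene, were called higher in 8.82% and lower in 5.66% of 3321. Those with the suffix _s_at, which are shared by several transcripts, were called higher in 6.08% and lower in 7.15% of 2617. Those with the suffix _x_at were called higher in 4.12% and lower in 5.69% of 6766. Plain probe sets were called higher in 2.34% and lower in 3.29% of 48411. By prefix, 3.96% were higher and 5.67% lower of 31438 with Ta. With TaAffx, 2.08% were higher and 1.92% lower of 29677. The 64 reporter-gene probe sets, which detect no wheat gene, were called in 0 cases. By cluster number, the 1862 higher probe sets came from 1537 clusters and the 2354 lower ones from 1882, and 8 clusters held calls in both directions. Of 684 clusters with several probe sets and a higher call, all probe sets were higher in 137, and of 776 such clusters with a lower call, all were lower in 142. Probe sets that the annotation gives only a locus number were called higher in 71 and lower in 88 of 1254, which is 5.66% and 7.02%, beside 3.04% and 3.85% of all probe sets.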

How the data were processed

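Total RNA of triticale organs was hybridised to 39 wheat arrays in 13 groups of 3. Per the submitters' processing notes, the authors summarised the probes by RMA, which corrects background and quantile-normalises; what was deposited is log2 signal. The software version and the set of arrays normalised jointly were not stated in the labels. Forcing arrays to one distribution can lift dim probe sets where abundant transcripts are few. Rye transcripts may bind wheat probes less well.

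AFFX probe sets were dropped and 61179 tested, with no filter on dim ones, by limma 3.58.1 in R 4.3.3: 13 group means over 39 arrays, contrasts, and eBayes (26 residual and 7.49 prior degrees of freedom). The p-values rest on the spread between 3 replicates a group, pooled for each probe set over all 13 groups, including organs and stages not compared. Genes came from a platform annotation of 2007, with 1 symbol for 13 genes and a bare locus number for 758 others. A gene with several probe sets is given by the one with the highest mean over all arrays. All named genes were reported, and of unnamed probe sets the 2 with the largest called difference per direction. The comparison and gene lists were chosen with earlier results of these data known. Alternatives were 2 scalings, a filter on dim probe sets, other sets of arrays, robust moderation with a variance trend, weighted arrays, a replicate block, other thresholds, controls kept, and each replicate left out. The number of arrays limits the precision.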

Additional observations from a re-analysis of the deposited data

Results flagged for a closer look

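For XTH, petC and FBP, the stigma and ovary difference was not the same at 2 stages, by the limma test of the change itself. From UNM to BCP the difference moved by 1.79 for XTH (adjusted p = 0.00018). From BCP to TCP, across a change of kits that both organs shared, it moved by 1.55 for XTH (adjusted p = 0.00021), by 1.85 for FBP (adjusted p = 1.3e-05) and by -1.19 for petC (adjusted p = 0.0047). The 4 unnamed probe sets were chosen on the BCP arrays that these changes use, so their values are descriptions: from UNM to BCP the difference moved by 7.70 for Ta.14426.1.S1_at, by 7.83 for Ta.14426.1.S1_x_at and by -1.73 for Ta.6504.1.S1_at, and from BCP to TCP by 1.27 for Ta.27776.1.S1_at. The change of Ta.27776.1.S1_at, as a description too, missed the thresholds of a call under 12 of 20 alternatives. Its value moved most without stigma TCP replicate 3, where it was 0.62. That array had 6.0, beside 4.08 and 4.03 in the other stigma arrays at TCP.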

How the results depend on the processing

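The XTH and petC calls at BCP held under every alternative run, with differences of 1.39 to 1.87 and -1.88 to -1.63. At BCP, dropping the fold minimum gave 5676 higher and 6379 lower, and leaving out one array gave 1531 to 2386 higher and 2203 to 2521 lower. For the change from UNM to BCP, the 1182 became 710 (with 891 lower) with only the compared arrays, 702 at an adjusted p under 0.01 and 1791 (with 1604 lower) without the fold minimum; they were 694 without stigma BCP replicate 2 and 1783 without stigma BCP replicate 3. After scaling to the hybridisation controls, the change from BCP to TCP gave 1468 higher and 4088 lower, and TET gave 1028 higher and 398 lower. Such scaling also gave 71.3% of the UNM to BCP calls as higher, beside 58.9%. The causes were not tested.

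Some uncalled differences changed sign. FBP at BCP was 0.0096 with scaling on the brighter 50% of probe sets, 0.086 with scaling on the hybridisation controls, and -0.144 to 0.068 with one array left out. With one array left out, THI1.1 was -0.0193 to 0.0524 and THI1.2 -0.0046 to 0.145. The petC change from UNM to BCP was -0.0228 with array weights and -0.118 to 0.166 with one array left out, and the changes from BCP to TCP were -0.0669 to 1.47 for Ta.14426.1.S1_at (0.91 with all arrays) and -0.58 to 0.0995 for Ta.6504.1.S1_at.

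Deviations from the group means correlated at 0.082, 0.436 and 0.063 in stigmas and ovaries with the same replicate number, which is not above 0.1 for every pair, and the labels do not say what a number marks; not every array correlated best with its own number. A replicate block gave 1844 higher and 2379 lower at BCP, and 934 higher and 915 lower for the change from UNM to BCP.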
